A study of Rattus norvegicus with 6 samples.

Results

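Rat hippocampal transcripts for the carriers that move glucose and lactate across cell membranes, and for the enzymes that trap glucose and interconvert lactate and pyruvate, were examined as one set. The set comprised 10 genes, namely the glucose carriers Slc2a1, Slc2a3 and Slc2a4, the lactate carriers Slc16a1, Slc16a3 and Slc16a7, the lactate dehydrogenase subunits Ldha and Ldhb, and the hexokinases Hk1 and Hk2. Probes were assigned to these genes by the gene name printed on the array. The genes themselves were chosen with earlier results of these data known. All 10 genes were found among the 35561 distinct names of the array, on 12 of the 41012 probes and 39 of the 43379 spots of each array, since Slc2a4 and Hk1 each had a pair of probes and 3 probes were printed as 10 spots.

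RNA came from the hippocampus of male Wistar rats, 11 weeks old when first housed and older by the length of rearing and training at collection, in 3 groups. Control rats (CONT) stayed sedentary on a treadmill that did not move, mildly exercised rats (ME) ran at 15 m/min and intensely exercised rats (IE) at 40 m/min, for 60 min per day, 5 times per week, over 6 weeks, speeds that the study placed below and above the lactate threshold. RNA of 5 rats per group was pooled, and each pair of pools, ME and IE each against CONT and IE against ME, was hybridized on 2 two-colour Agilent arrays with the dyes Cy3 and Cy5 swapped. By the methods, the 2 arrays of a pair are therefore repeated measurements of the same RNA, although the labels name separate pools. A comparison counts as 1 replicate, and rats could not be tested against rats. The model has further limits. Habituation to running lasted 1 week for ME and 4 weeks for IE, light electric shocks were used in habituation and sometimes later for IE, and rats that did not run were left out, so that speed, shocks and habituation cannot be told apart. The sample records place tissue collection 24 or 36 h after the last session, and the methods give a later time.

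As background, the brain takes glucose from blood through GLUT1, encoded by Slc2a1, which sits in the endothelium of the blood-brain barrier and in glia. Neurons take it up mainly through GLUT3, encoded by Slc2a3, and some neurons of the hippocampus also hold the insulin-responsive carrier GLUT4, encoded by Slc2a4. Hexokinase then phosphorylates glucose so that it stays in the cell and enters glycolysis. Lactate made by lactate dehydrogenase leaves or enters cells with a proton through the monocarboxylate carriers MCT1 (Slc16a1, endothelium and glia), MCT4 (Slc16a3, astrocytes) and MCT2 (Slc16a7, neurons), and this traffic from glia to neurons has been tied to memory in the hippocampus.

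Because hexokinases and lactate dehydrogenases come as close relatives, the probe sequences that tell them apart are shown first. Each probe is 60 bases long and is written 5′ to 3′. In the Hk1 and Hk2 lines, capitals mark the bases that differ between the 2 probes in their best ungapped alignment, in which 32 of 48 overlapping bases (66.7%) were identical. The Ldha and Ldhb probes, and the GLUT3 probe shown beside them, come from unrelated stretches, so no capitals are used; Ldha and Ldhb shared 20 of 59 bases (33.9%) at best.
Hk1 (probe A_44_P139536): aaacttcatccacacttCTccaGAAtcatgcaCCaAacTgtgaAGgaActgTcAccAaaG
Hk2 (probe A_44_P452291): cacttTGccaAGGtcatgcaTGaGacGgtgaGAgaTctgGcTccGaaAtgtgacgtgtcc
Ldha (probe A_44_P210461): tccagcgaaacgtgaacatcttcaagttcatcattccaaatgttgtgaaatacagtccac
Ldhb (probe A_44_P414066): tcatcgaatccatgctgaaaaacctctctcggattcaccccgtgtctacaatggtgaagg
Slc2a3 (probe A_44_P292510): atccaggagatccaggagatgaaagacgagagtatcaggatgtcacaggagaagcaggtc

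In the coordinates that the array files give for the rat build rn3, the Ldha probe (RefSeq NM_017025) lies on the plus strand at chr1:97485785-97485844 and the Slc2a3 probe (NM_017102) on the minus strand at chr4:159459854-159459913. The Ldhb probe (NM_012595) spans 2029 bases on the minus strand, chr4:180307045-180309073, and the Hk2 probe (NM_012735) spans 1508 bases on the minus strand, chr4:117170976-117172483, so both cross at least 1 intron and match spliced RNA. No coordinates are given for the Hk1 probes (NM_012734). The glucose carrier Slc2a1 (NM_138827) is read at chr5:139724005-139724064 on the plus strand. The Slc2a4 gene (NM_012751) is read on the minus strand at chr10:56800484-56800543 by probe A_44_P477406 and across an intron, chr10:56804405-56805712, by probe A_44_P311360. The lactate carriers are read at chr2:199842858-199842917 (Slc16a1, NM_012716, plus), chr10:110177623-110177682 (Slc16a3, NM_030834, plus) and chr7:65231551-65231610 (Slc16a7, NM_017302, minus). Exon and UTR borders of rn3 were not used here.

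None of the 12 probes differed between pools by the criteria applied, in any comparison. Ratios are log2 of the first-named pool over the second, given for array 1 (first-named pool in Cy5), for array 2 (dyes swapped) and as the mean ± SD of these 2 arrays. A call needed a Cy5/Cy3 ratio of 1.5 or more on one array and of 0.75 or less on the swapped one, or the reverse. It also needed a p under 0.01 on both arrays, taken from the error model of the scanner software, which compares 2 pools on 1 array and not groups of rats. By this rule 0 of the 12 probes were called in each comparison, against 0.122% of all probes for ME vs CONT, 0.0293% for IE vs CONT and 0.0732% for IE vs ME. Series of 3 values keep this order throughout. With the p left out, 0 of 12 passed in each comparison, against 0.987%, 0.667% and 1.06% of all probes. At a wider range of 1.2-fold in the same direction on both arrays, 0 of 12 passed again, against 3.12%, 2.41% and 2.68%. With so few members, 0 lies near the background shares at each of these limits and is no result particular to them.

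Signal set what could be measured. The software's flag for a spot well above background was met in all 12 readings (2 dyes on 6 arrays) by 10 of the 12 probes, and the other two, the Hk2 probe and the Slc2a4 probe A_44_P311360, met it in only some. Probes well above background in all readings of a comparison are called measurable here, and of those on the whole array 0.997%, 0.414% and 0.608% passed the 1.2-fold range. The 10 measurable probes had mean ratios from -0.11 to 0.11 for ME vs CONT, from -0.10 to 0.0043 for IE vs CONT and from -0.083 to 0.052 for IE vs ME. Their largest changes were thus 1.08-fold, 1.07-fold and 1.06-fold. Medians were -0.014, -0.02 and 0.0044, beside -0.0025, 0.0018 and 0.0028 over all measurable probes, whose central 95% ran from -0.20 to 0.23, -0.20 to 0.19 and -0.21 to 0.23. All 30 mean ratios of the 10 probes lay inside these ranges. The smallest software p of any of the 10 probes on any array was 0.17 for ME vs CONT, 0.17 for IE vs CONT and 0.28 for IE vs ME.

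**Figure D1:**
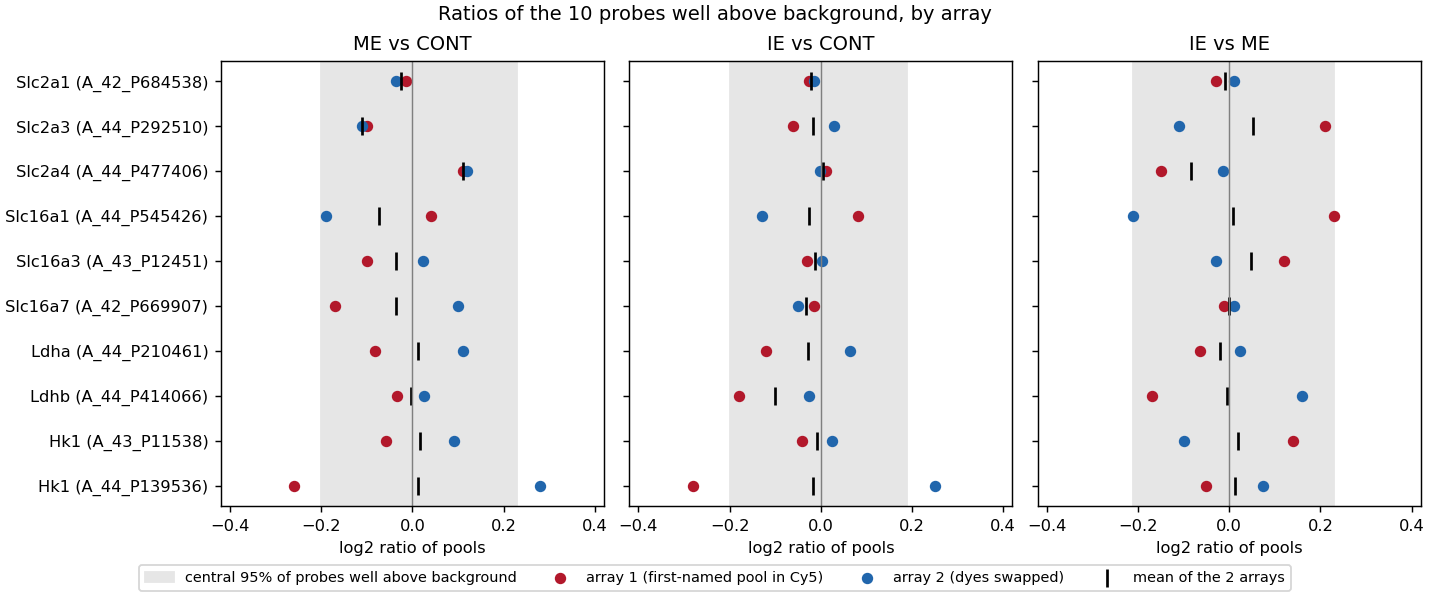
Log2 ratio of pools (x axis) for the 10 probes well above background in all readings (y axis), on array 1 (red), on the dye-swapped array 2 (blue) and as the mean (black bar), with the central 95% of the mean ratios of measurable probes in grey. Every mean lies inside the grey range, while single arrays of the Hk1 probe A_44_P139536 reach -0.28 and 0.28.

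Slc2a1 was read by 10 spots on each array. For ME vs CONT its ratio was -0.014 on array 1 and -0.036 on array 2 (mean -0.025 ± 0.016). For IE vs CONT it was -0.027 and -0.016 (-0.022 ± 0.008). Both arrays of both comparisons lay slightly below 0, and the direct IE vs ME arrays fell on either side of it, at -0.028 and 0.011 (-0.0085 ± 0.028). The GLUT1 transcript was thus read at 0.983 and 0.985 of its CONT level in the ME and IE pools. Spot by spot, 9 of 10 spots lay below 0 with ME (range -0.065 to 0.0064) and 10 of 10 with IE (range -0.068 to -0.0026), and the SD over spots was 0.022 and 0.019. Spots share the pools and the dye labeling, so their spread covers printing and scanning only. The processed signal of this probe ranged from 3559 to 3734 on the slide with CONT and from 4675 to 4837 on the IE vs ME slide. As the RNA is that of whole tissue, fewer cells of a type and less RNA per cell cannot be told apart, here or for any other ratio.

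Slc2a3, the neuronal glucose carrier, had the lowest ratio for ME vs CONT among the measurable probes, -0.10 on array 1 and -0.11 on array 2 (-0.11 ± 0.01). The 2 arrays gave nearly the same value with the dyes swapped. For IE vs CONT the arrays disagreed in sign, -0.062 and 0.029 (-0.017 ± 0.065), and for IE vs ME they were farther apart, 0.21 and -0.11 (0.052 ± 0.23). Its signal was low, 132 to 148 on the slide with CONT and 113 to 137 on the other. The ME vs CONT ratio shrank to -0.057 when the raw signals were corrected by normexp and loess.

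Slc2a4 had the highest ratio for ME vs CONT among the measurable probes. Probe A_44_P477406 gave 0.11 on array 1 and 0.12 on array 2 (0.11 ± 0.0063), and all 10 of its spots lay above 0, from 0.027 to 0.24 (SD over spots 0.071). For IE vs CONT the arrays gave 0.011 and -0.0019 (0.0043 ± 0.0089), with 4 spots above and 6 below 0. On the direct IE vs ME arrays both values were below 0, -0.15 and -0.014 (-0.083 ± 0.10), and 7 of 9 spots were below 0. The insulin-responsive carrier was thus read about 1.08-fold higher in the ME than in the CONT pool, a size that lies inside the central 95% of all measurable probes. Signals ran from 112 to 129 on the slide with CONT and from 73.5 to 95.5 on the other, and the ME vs CONT ratio was 0.042 after normexp and loess and 0.063 without background subtraction.

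The second Slc2a4 probe, A_44_P311360, could not settle this. It was well above background in 4 of 8 readings on the slide with CONT (signals 6.05 to 14.4) and in 1 of 4 on the IE vs ME slide (3.17 to 17.2), and each of those readings was in Cy5. Its ratios were 0.26 and -1.25 for ME vs CONT (-0.49 ± 1.07) and 0.33 and 0.087 for IE vs CONT (0.21 ± 0.17). For IE vs ME the arrays gave 2.03 and -2.05 (-0.0093 ± 2.88), so that the sign followed the dye and not the pool. The probes of this gene thus disagreed in sign for ME vs CONT, and a mean over both probes was -0.19.

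**Figure D2:**
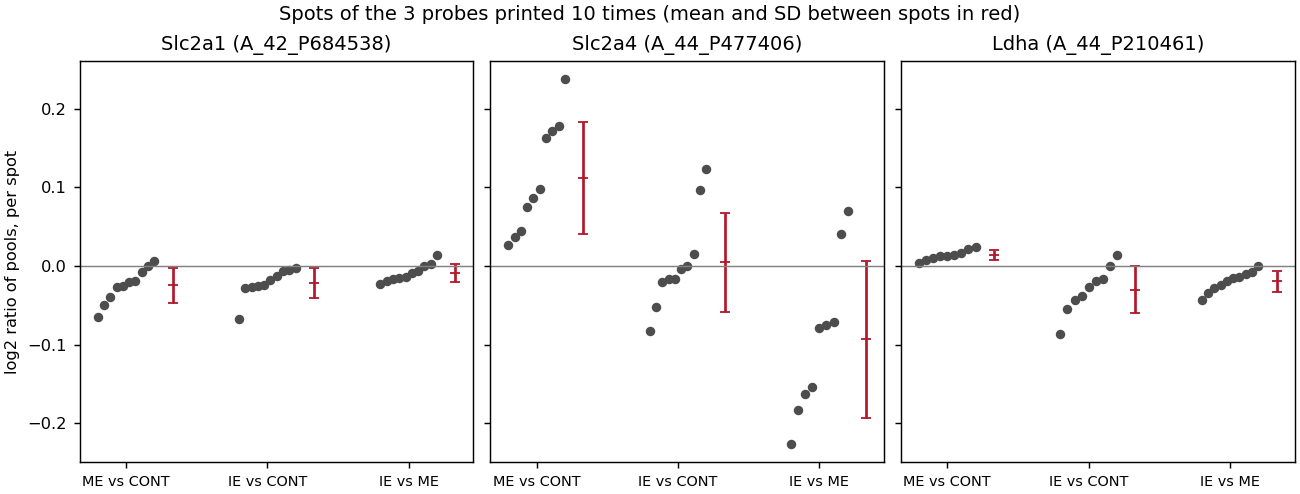
Log2 ratio of pools per spot (y axis, mean over the 2 arrays of a pair) for the 3 probes printed 10 times, in the 3 comparisons (x axis), with spots ordered by value and the mean ± SD between spots in red. Spots of Slc2a4 for ME vs CONT all lie above 0 (0.027 to 0.24), while those of Slc2a1 and Ldha stay within -0.087 to 0.024 throughout.

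Among the lactate carriers no ratio was larger than the spread of its 2 arrays for ME vs CONT. Slc16a1, which encodes MCT1, gave 0.04 and -0.19 (-0.073 ± 0.16) for ME vs CONT. The arrays were 0.081 and -0.13 for IE vs CONT (-0.027 ± 0.15) and 0.23 and -0.21 for IE vs ME (0.0093 ± 0.31). In all 3 pairs the pool labeled with Cy5 read higher, whichever pool it was. The signals of this probe, the one with the lowest GC content of the set (35%, against 43.3% for the median probe of the array), ran from 697 to 846 on the slide with CONT and from 185 to 232 on the other.

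Slc16a3, the gene of MCT4, gave -0.10 and 0.023 for ME vs CONT (-0.037 ± 0.084). The ratios were -0.03 and 0.003 for IE vs CONT (-0.013 ± 0.023) and 0.12 and -0.029 for IE vs ME (0.048 ± 0.11), so that the arrays of every pair lay on opposite sides of 0. Slc16a7, the gene of the neuronal carrier MCT2, gave -0.17 and 0.10 for ME vs CONT (-0.036 ± 0.19). Here the IE vs CONT arrays had the same sign, -0.015 and -0.049 (-0.032 ± 0.024), and the IE vs ME arrays were close to 0, at -0.011 and 0.0097 (-0.00048 ± 0.014). Signals were 236 to 292 and 138 to 161 for Slc16a3 on the slide with CONT and the other slide, and 259 to 309 and 258 to 263 for Slc16a7.

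The lactate dehydrogenase subunits combine into isoenzymes, with the product of Ldha favoring the formation of lactate and that of Ldhb more common where lactate is oxidized. Ldha gave -0.081 and 0.11 for ME vs CONT (0.013 ± 0.13). It gave -0.12 and 0.063 for IE vs CONT (-0.028 ± 0.13) and -0.063 and 0.023 for IE vs ME (-0.02 ± 0.061). In each pair the pool in Cy5 read lower. Averaging over the dye swap left little, and for ME vs CONT the spots, which ran from -0.11 to -0.055 on array 1 and from 0.08 to 0.15 on array 2, came to means between 0.0042 and 0.024 with an SD of 0.0064.

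Ldhb had the lowest ratio for IE vs CONT of the measurable probes, -0.18 on array 1 and -0.027 on array 2 (-0.10 ± 0.10). Both arrays lay below 0 but the difference was no larger than their spread. For ME vs CONT the arrays gave -0.033 and 0.025 (-0.0038 ± 0.041), and on the direct IE vs ME arrays -0.17 and 0.16 (-0.004 ± 0.23). The direct comparison therefore did not show a lower level with IE. Its probe was bright without saturation, 44019 to 49702 on the slide with CONT and 24774 to 27987 on the other, and Ldha signals were 3383 to 3938 and 2652 to 2769.

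Hk1, the hexokinase found on mitochondria throughout the brain, was read by a pair of probes whose means stayed near 0. For ME vs CONT, probe A_43_P11538 gave -0.058 and 0.091 (0.017 ± 0.11) and probe A_44_P139536 gave -0.26 and 0.28 (0.012 ± 0.38). The IE vs CONT arrays gave -0.042 and 0.025 (-0.0086 ± 0.047) with the first probe and -0.28 and 0.25 (-0.018 ± 0.38) with the second. On the IE vs ME arrays they read 0.14 and -0.10 (0.019 ± 0.17), then -0.05 and 0.074 (0.012 ± 0.087). Every pair of arrays thus lay on opposite sides of 0. The means of the probes lay close together in each comparison, although the second probe had the widest arrays of the measurable set on the slide with CONT. Signals were 29472 to 32918 and 13550 to 14964 for the first probe, and 1899 to 2510 and 1220 to 1298 for the second.

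Hk2, the hexokinase best known from muscle and heart, was not well above background in most readings, 2 of 8 passing on the slide with CONT (signals 7.24 to 14.1) and 1 of 4 on the other (3.47 to 15.1). Each reading that passed was in Cy5. Against CONT, the ME ratios were 0.065 and -0.41 (-0.17 ± 0.34) and the IE ratios -0.24 and -0.14 (-0.19 ± 0.068). The IE vs ME ratios, 1.77 and -1.70 (0.033 ± 2.45), turned with the dye. Nothing can be said of its level from values at the background, and no fold is given for it.

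The swap of dyes shows how the single arrays of these genes are to be read. For each pair, the dye term is the mean log2 Cy5/Cy3 of the 2 arrays, which holds what follows the dye and not the pool. It was larger in size than the ratio of pools in 23 of 30 pairs of the 10 measurable probes, beside 72.6% of the 74148 pairs of the 24716 probes measurable in all readings. The dye term of Hk1 probe A_44_P139536 was -0.27 in both pairs with CONT and -0.062 for IE vs ME. That of Slc16a1 was 0.11, 0.11 and 0.22. The sign was the same in all 3 pairs for 4 of the 10 probes, beside 60.6% of the measurable probes of the array. For Slc2a3 and Slc2a4 in ME vs CONT the dye term was only 0.0072 and -0.0044. Arrays of a pair had the same sign for 3, 3 and 1 of the 10 probes in the 3 comparisons, and for 28.6%, 28.2% and 26.7% of all measurable probes.

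**Figure D3:**
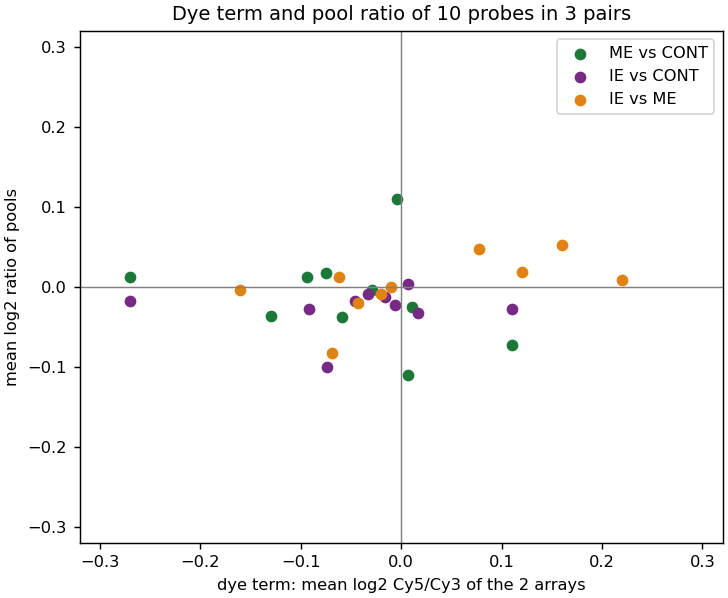
Mean log2 ratio of pools (y axis) against the dye term (x axis, mean log2 Cy5/Cy3 of the 2 arrays) for the 10 measurable probes in each of 3 pairs (colours), on equal scales. Points spread from -0.27 to 0.22 along the dye axis and only from -0.11 to 0.11 along the axis of the pools.

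The IE vs ME arrays, on a slide of their own, measure the difference that the other arrays imply. By the methods, 1 pool per group enters both routes, so these would be repeated measurements of 1 quantity. The labels, however, name separate pools for the arrays of a pair. The IE vs ME slide was also read with another scanner model (G2505C against G2505B) and software version. For Slc2a4 (probe A_44_P477406) the implied log2 ratio of IE over ME was -0.11 and the direct one -0.083. For Slc2a3 they were 0.091 and 0.052, and for Ldhb -0.10 and -0.004. Across the 10 measurable probes the routes differed by 0.0045 (Slc16a7) to 0.093 (Ldhb), with a median of 0.031, beside a median of 0.058 over the 24716 probes measurable in all readings.

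Genes around these steps gave ratios of like size. The 7 further lists held 62 genes on the array with 78 probes, of which 66, 65 and 60 were measurable in the 3 comparisons. None of the 78 probes was called, and 0 of the measurable ones passed the 1.2-fold range in any comparison. The measurable probes had medians of -0.0049, -0.016 and -0.0078, and ranges of -0.27 to 0.24, -0.23 to 0.11 and -0.13 to 0.15. Dim probes of a pair of genes passed that range without a call. Slc5a1, the sodium-coupled glucose carrier SGLT1, gave 0.92 and 0.67 for ME vs CONT, with 2 of 4 readings well above background, and -0.28 and -0.44 for IE vs ME, with 1 of 4. Hk3, a further hexokinase, gave 0.38 and 0.54 for ME vs CONT and 0.27 and 0.57 for IE vs ME, each with 3 of 4 readings well above background. The lists were chosen with earlier results of these data known, and their counts are descriptions.

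Of the other glucose carriers, 7 of 9 genes were on the array, and the measurable probes had medians of -0.019 (4 probes), 0.052 (5 probes) and 0.0096 (3 probes). The other monocarboxylate carriers and their membrane partners (10 of 11 genes) had medians of 0.016, 0.015 and -0.0025. Both extremes of ME vs CONT stood in that list, and they were named after their values were seen. Slc16a10, a carrier of aromatic amino acids, gave -0.41 and -0.14 (-0.27 ± 0.19). Slc16a12, a creatine carrier, gave 0.28 and 0.20 (0.24 ± 0.055), and the orphan carrier Slc16a11 gave 0.26 and 0.23 (0.24 ± 0.018). Bsg, the partner that brings MCT1 and MCT4 to the membrane, was at -0.017 ± 0.24 with ME and at 0.03 ± 0.25 with IE, both against CONT. Other hexokinases and lactate dehydrogenases (5 of 6 genes) were mostly too dim, with 2 measurable probes and medians of 0.0041, -0.0035 and 0.13.

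Glycolysis beyond hexokinase was covered by all 17 genes listed, with medians of -0.008, -0.02 and -0.0036 over 21, 21 and 19 measurable probes. Gapdh, often taken as a reference transcript, was at 0.018 ± 0.11 and 0.037 ± 0.16 on its probes for ME vs CONT, and at -0.02 ± 0.092 and 0.035 ± 0.12 for IE vs CONT. Genes of mitochondrial pyruvate use (11 of 13) had medians of 0.0039, -0.0053 and -0.042, and 10 of their 11 measurable probes lay below 0 for IE vs ME, the lowest at -0.08. Glycogen genes (7 of 8) had medians of -0.031, -0.043 and -0.0047. The regulators (5 of 7 genes) had medians of -0.0045, -0.02 and 0.019, and Hif1a, the oxygen-sensing activator of many of these genes, was at 0.024 ± 0.013 and 0.0077 ± 0.14 on its probes for ME vs CONT.

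**Figure D4:**
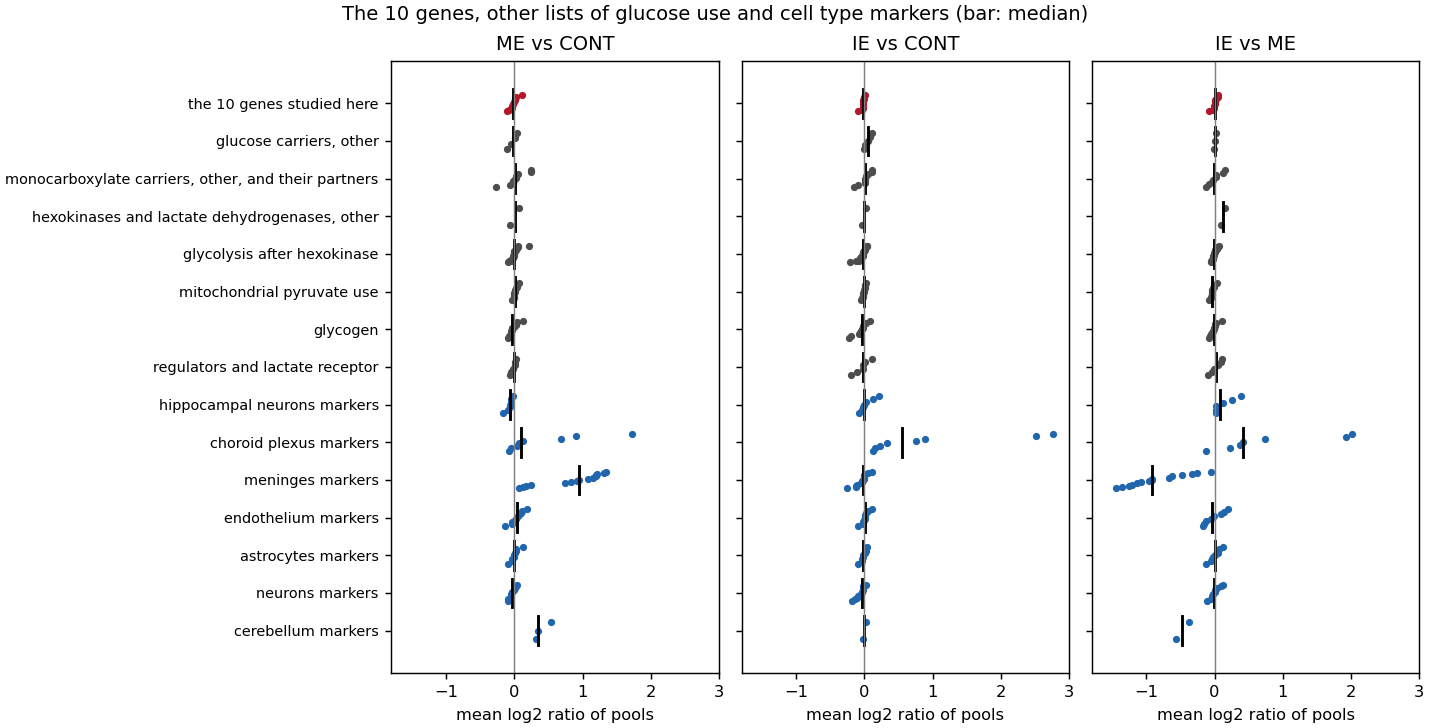
Mean log2 ratio of pools (x axis) of each measurable probe in the 10 genes studied here (red), in 7 other lists of glucose use (grey) and in 7 lists of cell type markers (blue), with the median of each list as a bar. The red and grey points stay between -0.27 and 0.24, while meningeal markers reach 1.34 for ME vs CONT and choroid plexus markers 2.76 for IE vs CONT.

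On the same arrays, some markers of meninges, choroid plexus and cerebellum were called. Choroid plexus markers were called in all 3 comparisons and meningeal ones for ME vs CONT and IE vs ME. A cerebellar marker was called for ME vs CONT only. All 15 probes of 11 meningeal genes lay above 0 for ME vs CONT, 11 of them called, with a median of 0.94, and 10 were called lower for IE vs ME (median -0.92), against a median of -0.024 and 0 calls for IE vs CONT. Ptgds, which makes prostaglandin D2, had the highest of these ratios for ME vs CONT (1.34 ± 0.083), followed by Ogn (1.31 ± 0.14) and Col1a2 (1.21 ± 0.051). For IE vs ME the lowest were those of Ptgds (-1.44 ± 0.19), Ogn (-1.35 ± 0.15) and Col3a1 (-1.26 ± 0.027). The summed signal of the 15 probes on the slide with CONT was 17222 to 18062 in the CONT pool, 39083 to 42145 in the ME pool and 16664 to 17046 in the IE pool. Choroid plexus markers (12 genes, 13 probes) had medians of 0.10, 0.54 and 0.42 over the measurable probes, with 3, 4 and 2 probes called higher. Ttr, the thyroxine carrier of the plexus, was at 0.91 ± 0.24, 2.51 ± 0.35 and 1.92 ± 0.071, and Sostdc1 at 0.69 ± 0.14, 2.76 ± 0.49 and 2.02 ± 0.68. The other calls were those of Kcnj13 for ME vs CONT (1.73 ± 0.62) and, with 3 of 4 readings well above background, for IE vs CONT (2.09 ± 0.23), and that of Otx2 for IE vs CONT (0.89 ± 0.065). A second Otx2 probe, also measurable for IE vs CONT, gave 0.15 ± 0.087 there and was not called. The list was not uniform. For ME vs CONT, 2 of 8 measurable probes lay below 0, those of Folr1 (-0.045 ± 0.13) and Steap1 (-0.084 ± 0.56). For IE vs ME, 1 of 7 did, that of Kcnj13 (-0.12 ± 0.42). For IE vs CONT, 0 of 8 did. Over the 12 probes that carry these names on the array, summed signals were 2793 to 3442 (CONT), 3442 to 3604 (ME) and 6532 to 7078 (IE). Cerebellar markers (4 of 5 genes) had medians of 0.35, -0.0012 and -0.47 over only 3, 2 and 2 measurable probes. Their 1 call, for ME vs CONT, was that of Gabra6, which was not measurable (2.78 ± 0.19, 2 of 4 readings well above background). Their sums were 324 to 356 (CONT), 447 to 452 (ME) and 320 to 380 (IE). The part of such tissue in the ratios of the 10 genes was not tested.

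Lists of markers of the cells in which the 10 genes are best known had medians from -0.062 to 0.075. Of their probes, 0 were called in any comparison. Endothelial markers (9 genes, 13 probes) had medians of 0.035, 0.0082 and -0.034 over the measurable probes, and sums, over 12 probes so named on the array, of 8252 to 9038 (CONT), 8730 to 9208 (ME) and 8084 to 8861 (IE). Astrocyte markers (7 genes, 10 probes) had medians of -0.0056, -0.016 and 0.013 and sums over 9 probes of 66317 to 69892, 66986 to 71434 and 65673 to 71500. Neuronal markers (6 of 7 genes, 10 probes) had medians of -0.037, -0.042 and -0.011 and sums over 9 probes of 41492 to 43658, 42328 to 43051 and 40758 to 41170. For IE vs CONT, 9 of these 10 probes lay below 0. Markers of hippocampal neurons (6 of 9 genes, 7 probes) were well above background on every array against CONT. No other tissue was on the arrays, so this cannot test the tissue label. For IE vs ME, Prox1 met the flag in only 2 of 4 readings, which left 6 measurable probes. The list had medians of -0.062, -0.0036 and 0.075, with all 7 probes below 0 for ME vs CONT and all 6 above 0 for IE vs ME. For IE vs CONT, 3 lay above 0 and 4 below. Sums were 4112 to 4759, 4154 to 4458 and 4182 to 4500.

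By the methods, each comparison rests on 1 pool per group read on 2 arrays, and both numbers limit the precision. The median SD between the arrays of a pair was 0.13, 0.14 and 0.15 over all measurable probes, and differences between individual rats are not in these values.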

How the data were processed

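The authors pooled hippocampal RNA of 5 rats per group, labeled it with Cy3 or Cy5, and scanned 6 Agilent 4x44K rat arrays. Per the file headers, spots were extracted with Agilent Feature Extraction 9.5.3.1 (4 arrays against CONT, 1 slide, build rn3) and 11.0.1.1 (2 IE vs ME arrays, the second slide, build rn4), while the submitters' processing notes name only the first version. The deposited log10 ratio is Cy5 over Cy3, background-subtracted and corrected for dye by LOWESS in the software. The deposited p-value comes from the software's error model. The deposited intensity values are raw and processed spot signals on a linear scale, and the deposited score-like flags mark outlier, saturated and well-above-background spots. A value table deposited by the authors gives log10 ratios of the processed signals (equal within 0.001 for 100% of spots), sign-turned on each second array, with column medians from -0.0084 to 0.0071. The labels name separate pools for the arrays of a pair, while the methods describe 1 pool per group, which was followed. Collection was 24 or 36 h after the last session per the labels and 2 days after it per the methods.

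Between 92 and 302 outlier spots per array were left out (0 or 1 of them in these genes), as were 1639 control features. Log10 ratios were turned to log2 of the first-named pool over the second, spots of a probe averaged, p taken as their median, and the arrays of a pair averaged, which cancels the dye effect. A probe counted as well above background where more than 0.5 of its spots were flagged so. On each array 66.5% to 74.4% of spots passed the background flag in both dyes, and 0 were saturated. The IE vs ME files were joined to the others by probe and spot number. Gene names are the array's, and 10735 probes could also be named through RefSeq accessions (GRCr8). The members and lists were chosen with earlier results of these data known. Outside the 10 genes, the rule named list genes called or past 1.2-fold and measurable in all 4 readings of a pair, at most 3 per list and comparison, which only marker genes met, and not all of those are printed. Other list genes were named after their values were seen. Summed marker signals cover probes that carry the gene's name on the array, while the medians also cover probes named through accessions or older names. Only the ratio range of the call rule, without its p, was tried on simulated data. These had normal noise set at the median SD of measurable probes. Tools were Python 3.11.15, numpy 2.4.6, pandas 2.3.3, matplotlib 3.10.9, R 4.3.3 and limma 3.58.1 (normexp with offset 50, loess).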

Additional observations from a re-analysis of the deposited data

How the results depend on the processing

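Calls stayed at 0 of the 12 probes in every comparison under every alternative tried (no p threshold, mean ratio of a pair, symmetric 1.5-fold range, dim probes left out, normexp with loess, loess on raw signals, ratios of the deposited value table, no outlier filter, gene means, least squares over the 3 pairs, each array alone). Using 1 array of a pair at a time, the count past 1.2-fold ranged from 0 to 3 for ME vs CONT and from 0 to 2 for IE vs CONT, and was 2 with either array for IE vs ME, where a single array cannot separate pool from dye. The median of the 12 probes then ranged from -0.045 (without array 2) to 0.024 (without array 1) for ME vs CONT, from -0.036 to 0.00053 for IE vs CONT and from -0.021 to 0.057 for IE vs ME. The probes past 1.2-fold on single arrays included the dim Slc2a4 probe A_44_P311360 in all 3 comparisons and Hk2 for ME vs CONT and IE vs ME. The others were Hk1 probe A_44_P139536 for ME vs CONT and IE vs CONT. The share of all probes past 1.2-fold on a single array is not given here, so these counts are descriptions. Of 106 alternative values of single probes per comparison, 7, 6 and 2 moved by more than the SD between arrays. Many of the 106 could not move that far. A single array always lies within this SD of the mean of its pair. The deposited value table and the removal of dim probes repeat the main ratios. The counts therefore do not measure how stable the ratios are. Without the single-array settings, the measurable probes ranged from -0.19 to 0.11, -0.10 to 0.11 and -0.11 to 0.12. Here -0.19 and the 0.11 of IE vs CONT are gene means of Slc2a4 that include its dim probe. Its measurable probe alone gave 0.0043 for IE vs CONT in the main setting. The median of all probes stayed between -0.0016 and 0.0092 under the scaling alternatives. No paired analysis was possible because RNA was pooled within each group before labeling, and slide could not be fitted as a block because every comparison lies on 1 slide only. Brightness limited Hk2 and the Slc2a4 probe A_44_P311360.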
